A study of Mus musculus with 17 samples.

Results

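The genes described here are 9 transcription factors that build or hold the macrophage lineage: Spi1, Cebpa, Cebpb, Cebpd, Maf, Klf2, Klf4, Pparg and Gata6. They were found by their symbols and account for 9 of the 21683 rows of the expression table. RNA-Seq was performed in 17 libraries of peritoneal macrophages elicited with thioglycollate from C57BL/6 mice, cultured and harvested after 12 hours of treatment. Every animal was 8 weeks old. The F/F PBS group held 6 libraries of IKKβF/F cells given PBS, and the F/F Tat group held 6 libraries of the same genotype given the HIV protein Tat at 100 nM. The ΔMye Tat group held 5 libraries of IKKβΔMye cells given the same dose of Tat. IKKβ is a kinase that activates NF-κB, and in ΔMye mice its floxed gene is cut in myeloid cells by a Cre knocked in at the lysozyme locus (LysM-Cre). The Tat was a recombinant protein made in bacteria and cleared of endotoxin according to the methods. A ΔMye group given PBS was not analysed here, so any gap between the Tat groups of the 2 genotypes could have been present before Tat. The study describes its RNA-Seq columns as biological replicates of mice, while the labels tie no library to an animal, and p-values measure the spread between these libraries.

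PU.1, encoded by Spi1, opens chromatin at macrophage enhancers together with C/EBPα, and this pair can turn other blood cells into macrophage-like cells. C/EBPβ and C/EBPδ are bZIP relatives of C/EBPα that are known for acute-phase and inflammatory transcription, and members of the family pair with one another. c-Maf, KLF2, KLF4 and PPARγ shape the resting, lipid-handling or anti-inflammatory programs of mature macrophages, and GATA6 is the identity factor of large resident macrophages of the peritoneal cavity.

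The promoter sequences of 4 members are shown first, namely the C/EBP pair that moved in opposite directions with Tat and both Krüppel-like factors. RefSeq promoter windows (GRCm38.p6) matched 5 of the 9 members, and Pparg is not shown because its 3 starts cannot be told apart in values per gene. The windows are trimmed to the bases before the first annotated exon and read 5′ to 3′. They cover chr7:35119043-35119292 on the + strand for Cebpa, chr2:167688665-167688914 on the + strand for Cebpb, chr8:72318812-72319032 on the + strand for Klf2 and chr4:55532476-55532725 on the - strand for Klf4. Capitals mark GC boxes (GGGCGG), CRE motifs (TGACG) and TATA boxes (TATAAA) on either strand.
Cebpa: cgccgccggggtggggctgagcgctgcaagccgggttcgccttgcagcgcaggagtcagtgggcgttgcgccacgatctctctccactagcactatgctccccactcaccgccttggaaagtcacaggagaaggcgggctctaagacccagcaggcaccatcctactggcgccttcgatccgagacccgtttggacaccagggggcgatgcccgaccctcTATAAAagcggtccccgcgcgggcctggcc
Cebpb: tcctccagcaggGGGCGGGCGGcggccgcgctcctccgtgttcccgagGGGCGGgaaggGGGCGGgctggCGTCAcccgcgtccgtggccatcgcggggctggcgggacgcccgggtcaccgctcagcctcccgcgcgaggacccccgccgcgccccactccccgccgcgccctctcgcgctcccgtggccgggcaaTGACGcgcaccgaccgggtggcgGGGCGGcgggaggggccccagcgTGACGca
Klf2: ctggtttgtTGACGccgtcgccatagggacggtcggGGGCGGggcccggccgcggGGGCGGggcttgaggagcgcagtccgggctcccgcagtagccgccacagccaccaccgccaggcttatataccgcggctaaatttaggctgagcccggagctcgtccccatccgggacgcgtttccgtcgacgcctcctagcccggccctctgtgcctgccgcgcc
Klf4: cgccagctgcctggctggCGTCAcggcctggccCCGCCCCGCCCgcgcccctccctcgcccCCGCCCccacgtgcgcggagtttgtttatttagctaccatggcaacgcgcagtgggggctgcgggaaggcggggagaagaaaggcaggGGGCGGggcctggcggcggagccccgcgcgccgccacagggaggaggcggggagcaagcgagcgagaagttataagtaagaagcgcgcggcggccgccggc

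The Cebpa window differed from the other 3 in its letters. It held a TATA box that starts 30 bases before the gene and neither a GC box nor a CRE motif, and its GC content was 66.4%. The Cebpb window had no TATA box, 5 GC boxes and 3 CRE motifs, the nearest of them 7 bases before the gene, with a GC content of 81.6%. The windows of Klf2 and Klf4 each had 1 CRE motif, with 2 GC boxes in Klf2 and 4 in Klf4. Neighbouring GC boxes overlapped in Cebpb and in Klf4, and in Cebpb a KLF motif (CACCC) overlapped the CRE motif farthest from the gene. Of the same windows of 32851 RefSeq promoters (250 bases before the start), 32.7% held a GC box, 17.8% a CRE motif and 12.4% a TATA box. Both strands were also searched for a κB site, found in 7.3% of all promoters, a C/EBP site (TTGCNNAA, 9.6%), an AP-1 site (TGANTCA, 6.7%), a CCAAT box (CCAAT, 33.8%) and a PU.1 core (GAGGAA, 23.3%). None of these 5 motifs was in the 4 windows printed, which says only that these letters are missing from the windows. CACCC, held by 52.0% of promoters, occurred 2 times in Cebpb and 1 time in Cebpa.

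The labelled cell type was checked first. Of 9 macrophage markers, all were above 1 TPM (a transcript level corrected for length and library size) in every library, among them Cd68 at 1744 to 2596 TPM and Adgre1 (F4/80) at 441 to 512 TPM in the group means. Their summed level was 25857 to 26860 TPM with PBS, 10311 to 10892 TPM in F/F Tat and 8023 to 8346 TPM in ΔMye Tat, and most of it was Lyz2, the locus that carries the Cre. Ikbkb, the targeted gene, was at 26.8 ± 1.99 TPM (SD, n = 6) with PBS, 23.2 ± 1.44 TPM (SD, n = 6) in F/F Tat and 16.4 ± 2.59 TPM (SD, n = 5) in ΔMye Tat. The F/F Tat and ΔMye Tat ranges of Ikbkb did not overlap (adjusted p = 4.51e-05, limma), and the value covers the whole transcript, not the floxed part alone. The libraries summed to 889318 to 903576 TPM over the listed genes, and their sequencing depth is unknown.

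Differences below are log2 differences of TPM + 0.1 from limma, fitted over the 10451 genes that reached 1 TPM in 5 or more libraries. A gene passed the test at an adjusted p under 0.01 and was called when its fold also exceeded 3. The deposited values are not scaled between libraries, and the median tested gene was lower by -0.65 in F/F Tat against F/F PBS and higher by 0.22 in ΔMye Tat against F/F Tat. A median-ratio scaling, which sets the typical gene equal between libraries, moved these medians to -0.04 and 0.01. Each member is therefore given on both scales. All 9 members passed the filter on low values, Gata6 through the F/F PBS libraries.

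Tat was followed by lower levels of 5 members past both thresholds (Cebpa, Pparg, Klf2, Klf4 and Gata6), while no member was called higher. Among all tested genes 19.4% were called lower and 5.21% higher. Without the fold threshold 7 members fell, against 67.6% of all tested genes, and Cebpb alone rose, against 17%. The same 7 members and Cebpb had groups that did not overlap, as did 62.4% of all genes in the lower and 15.3% in the higher direction. After scaling, 6 members were lower and 3 higher (Cebpb, Spi1 and Maf), beside 38.9% and 36.5% of all genes, and the fold threshold was passed by Cebpa, Pparg and Gata6, beside 9.93% of all genes. Gata6 entered the test only through the F/F PBS libraries and so had to differ, and its place in these counts carries no weight.

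**Figure D1:**
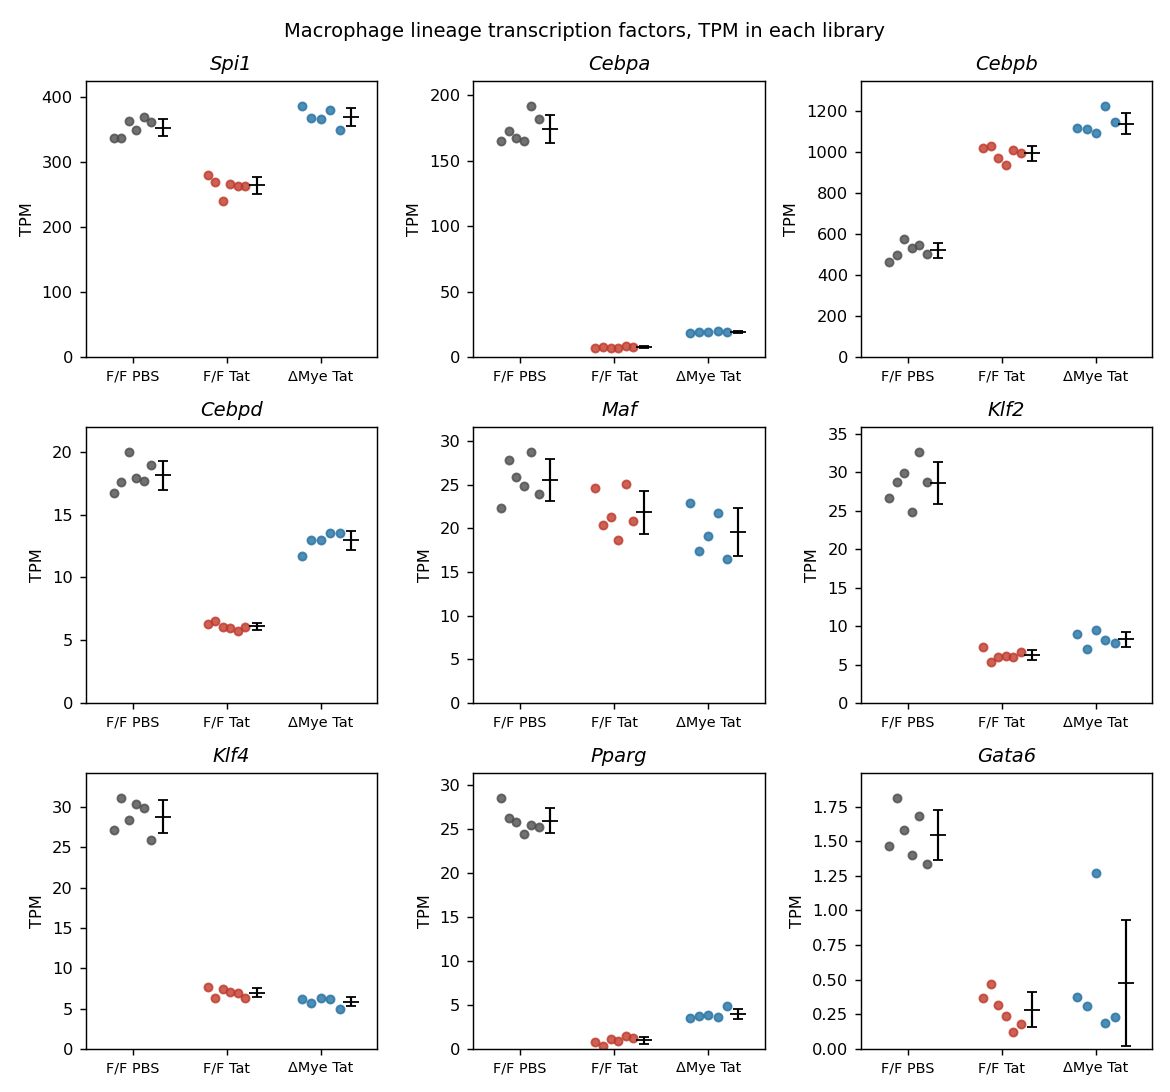
TPM of the 9 transcription factors in each library (vertical axes, TPM, each from 0) by group (horizontal axes). Points are libraries (6 F/F PBS, 6 F/F Tat, 5 ΔMye Tat), and the bar beside each group is its mean ± SD. Cebpa falls from 164.7 to 191.7 TPM with PBS to 7.09 to 8.66 TPM with Tat, Cebpb lies higher in both Tat groups, and 1 ΔMye library stands at 1.27 TPM for Gata6.

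Spi1 encodes PU.1 (chr2:91082390-91115756, + strand, GRCm38), and its exons share no sequence with another gene. With PBS its level was 337.2 TPM in the lowest, 355.7 TPM in the median and 369.2 TPM in the highest library, and with Tat these were 240.7, 265.1 and 280.3 TPM. The 5 ΔMye Tat libraries stood at 385.9, 367.0, 365.8, 379.7 and 349.7 TPM. All F/F Tat libraries were thus below the other groups, which overlapped with each other. On the deposited scale Spi1 was lower by -0.42 ± 0.04 (log2, SE) with Tat (adjusted p = 1.25e-09, limma). Relative to the typical gene it was higher by 0.20 (adjusted p = 4.88e-05, limma with median-ratio scaling). Over the other settings tried this difference ranged from -0.66 to 0.20, so the direction of Spi1 depended on the scaling. In ΔMye Tat it was higher than in F/F Tat by 0.49 ± 0.04 (adjusted p = 2.57e-09, limma), and by 0.27 after scaling. Spi1 remained among the most abundant members in each group and was in the top 5% of tested genes by level.

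Cebpa, the partner of PU.1 in myeloid commitment (chr7:35119293-35121928, + strand), showed the second-largest fall among the members. Its lowest, median and highest PBS libraries were 164.7, 170.2 and 191.7 TPM, against 7.09, 7.73 and 8.66 TPM with Tat in F/F cells. This left 4.46% of the PBS mean, a 22.2-fold drop (log2 -4.47 ± 0.05 SE, adjusted p = 2.66e-23, limma). The ΔMye Tat libraries lay between both F/F groups at 18.1, 19.3, 19.1, 19.8 and 19.5 TPM, with no overlap on either side. They held 11.01% of the PBS mean and were 2.453-fold above F/F Tat (log2 1.29 ± 0.05, adjusted p = 5.05e-13, limma), which passed the test but not the fold threshold. The scaled differences were -3.86 and 1.079. A non-coding transcript, Gm45091, lies antisense to Cebpa, and the sources used here do not say whether counting used strand. It shares 0.835% of the 31-base sequences of Cebpa.

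Cebpb, the inflammatory C/EBP (chr2:167688915-167690418, + strand, 1 exon), was the most abundant member in every group and moved the other way. It was at 465.4, 516.9 and 574.3 TPM in the lowest, median and highest PBS libraries and at 933.8, 1002 and 1028 TPM in those of F/F Tat. No library of the PBS group reached the Tat range, and the rise was 1.91-fold (log2 0.94 ± 0.04, adjusted p = 6.77e-14, limma) or 1.55 on the scaled log2 values. The ΔMye Tat libraries were at 1119, 1111, 1091, 1223 and 1145 TPM, all above F/F Tat. That difference of 0.20 ± 0.04 (adjusted p = 0.001, limma) was no larger than the shift of the median gene, and after scaling it was -0.02 (adjusted p = 0.734). Sequences transcribed from the other strand, nearly all of Tmem189, cover 19.3% of the 31-base sequences of Cebpb. Tmem189 itself was lower with Tat, at 185.3 ± 6.90 TPM (SD, n = 6) with PBS and 113.1 ± 1.60 TPM (SD, n = 6) in F/F Tat.

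Cebpd (chr16:15887286-15891031, + strand, 1 exon), often induced with Cebpb in acute-phase responses, was lower with Tat. The PBS libraries ranged from 16.7 to 19.98 TPM with a median of 17.8 TPM, and the F/F Tat libraries from 5.75 to 6.57 TPM with a median of 6.04 TPM. Its fall of 2.93-fold stayed just under the fold threshold (log2 -1.55 ± 0.06, adjusted p = 1.87e-15, limma; scaled -0.94). In ΔMye Tat it stood at 11.7, 12.9, 13.0, 13.6 and 13.5 TPM, between the F/F groups without overlap. These libraries were 2.10-fold above F/F Tat (log2 1.07 ± 0.06, adjusted p = 2.51e-11, limma; scaled 0.85). Against F/F PBS they were lower by -0.48 ± 0.06 (adjusted p = 3.79e-07, limma), and after scaling by -0.09 (adjusted p = 0.242). Exons of Spidr on the other strand cover 14.2% of the 31-base sequences of Cebpd, and Spidr went from 9.42 ± 0.992 TPM with PBS (SD, n = 6) to 3.86 ± 0.347 TPM in F/F Tat (SD, n = 6) and 6.08 ± 0.549 TPM in ΔMye Tat (SD, n = 5). How far this overlap moved the Cebpd and Cebpb values was not tested.

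The ratio of 2 genes within a library does not depend on scaling between libraries, so the balance of the C/EBP members can be read directly. Cebpb exceeded Cebpa by 2.77 to 3.43 times with PBS, by 116.8 to 139.9 times in F/F Tat and by 57.0 to 61.9 times in ΔMye Tat. The 3 groups did not overlap, and their mean log2 ratios were 1.58 ± 0.12 (SD, n = 6), 7.001 ± 0.09 (SD, n = 6) and 5.89 ± 0.06 (SD, n = 5). Of the summed TPM of Cebpa, Cebpb and Cebpd, Cebpa made up 21.99 to 25.8% with PBS, 0.705 to 0.844% in F/F Tat and 1.57 to 1.70% in ΔMye Tat. The sum itself was 647 to 762 TPM with PBS, 947 to 1043 TPM in F/F Tat and 1123 to 1256 TPM in ΔMye Tat. The summed level of these 3 transcripts was thus higher in both Tat groups, and nearly all of it was Cebpb.

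The Cebpd to Cebpa ratio went from a range of 0.0921 to 0.119 with PBS to 0.664 to 0.867 in F/F Tat. The ΔMye Tat range of this ratio, 0.647 to 0.694, overlapped that of F/F Tat. Spi1 exceeded Cebpa by 1.93 to 2.17 times with PBS, 30.3 to 38.5 times in F/F Tat and 17.97 to 21.3 times in ΔMye Tat. These ratios are descriptions and were given no test.

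**Figure D2:**
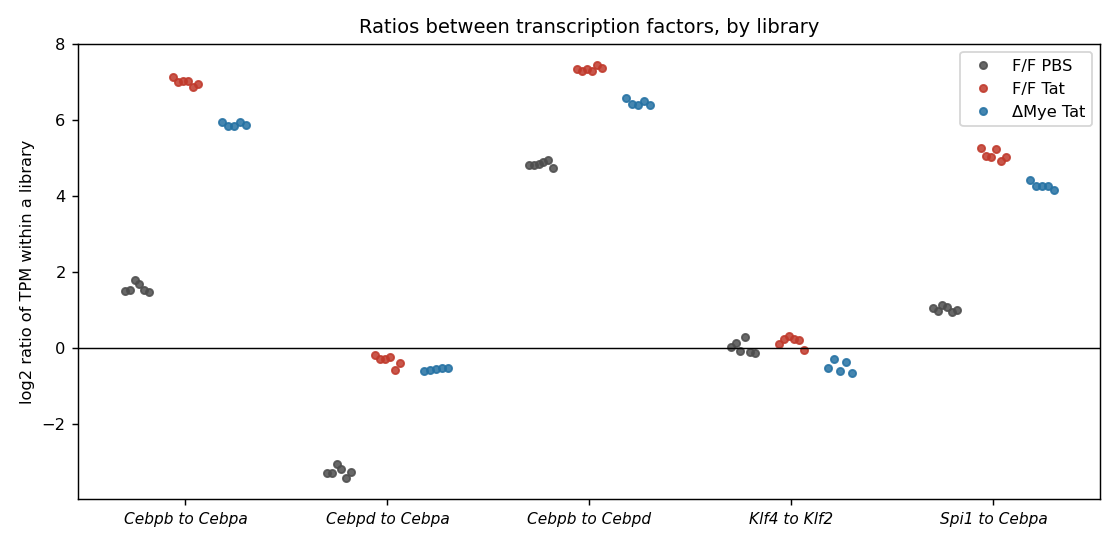
Log2 ratios of TPM between transcription factors within each library (vertical axis) for 5 pairs (horizontal axis). Each point is a library of F/F PBS (n = 6), F/F Tat (n = 6) or ΔMye Tat (n = 5), and the line marks equal levels. The mean log2 ratio of Cebpb to Cebpa is 1.58 with PBS, and with Tat it is 7.001 in F/F and 5.89 in ΔMye cells.

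The other bZIP partners of the family were fixed as a list of 3 genes, all tested. All 3 fell with Tat on the deposited values, and 2 did so after scaling, with a list median of -1.05 against -0.65 for all genes. Of all tested genes 67.6% were lower, and 38.9% after scaling. Cebpg, which lacks an activation domain and dimerises with other C/EBPs, was at 47.2 TPM with PBS and 22.8 TPM in F/F Tat (log2 -1.05 ± 0.10, adjusted p = 5.39e-09, limma). Ddit3, encoding the stress-induced partner CHOP, went from 250.7 to 114.4 TPM (log2 -1.13 ± 0.04, adjusted p = 6.10e-16). Cebpe, a granulocyte factor, was low throughout, at 1.52 TPM with PBS and 0.792 TPM in F/F Tat (log2 -0.84 ± 0.24, scaled -0.27). Cebpe passed the filter only through the F/F PBS libraries, so its fall is a description and its place in the count carries no weight. In ΔMye Tat against F/F Tat only Ddit3 passed, higher by 0.14, beside 38.8% of all genes higher and 8.87% lower. That difference was below the shift of the median gene (0.22), and its groups overlapped. After scaling none passed, beside 16.0% higher and 19.2% lower.

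Maf (chr8:115682942-115707794, - strand), the large Maf factor that drives Il10 and complement genes in macrophages, changed least among the members with Tat on the deposited values. The PBS libraries ranged from 22.3 to 28.7 TPM with a median of 25.4 TPM, and the F/F Tat libraries from 18.7 to 25.0 TPM with a median of 21.1 TPM. The ΔMye Tat libraries were at 22.9, 17.4, 19.1, 21.8 and 16.5 TPM, and all 3 groups overlapped. The difference of -0.23 ± 0.09 with Tat missed the test (adjusted p = 0.0209, limma), and relative to the typical gene Maf was higher by 0.38 (adjusted p = 1.02e-04). ΔMye Tat against F/F Tat gave -0.16 ± 0.09 (adjusted p = 0.141) on the deposited and -0.38 (adjusted p = 5.25e-04) on the scaled values. An antisense transcript, Gm15655, overlaps the gene, and sequences on the other strand cover 5.35% of its 31-base sequences.

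Among the small Maf proteins, which have no activation domain, Maff rose 3.42-fold to 38.1 TPM (adjusted p = 8.18e-16, limma) and Mafk 2.43-fold to 48.5 TPM (adjusted p = 4.68e-13), while Mafg stood at 74.5 TPM with PBS and 68.1 TPM in F/F Tat (adjusted p = 0.0718). Mafk was lower in ΔMye Tat than in F/F Tat by -0.45 ± 0.07 (adjusted p = 2.00e-05). Maff and Mafg were higher there, by 0.40 ± 0.06 (adjusted p = 3.40e-05, limma) and 0.28 ± 0.07 (adjusted p = 0.00185). After scaling Mafk was still lower (-0.67), while Maff (0.18) and Mafg (0.06) did not pass the test. Mafa and Nrl were not tested, with group means of at most 0.180 TPM, and Nrl was listed at 0 in all libraries.

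Klf2 (chr8:72319033-72321656, + strand) and Klf4 (chr4:55527143-55532466, - strand) encode zinc finger factors known to restrain NF-κB-driven transcription in endothelium and myeloid cells. Klf2 was at 24.8, 28.8 and 32.7 TPM in the lowest, median and highest PBS libraries and at 5.34, 6.05 and 7.23 TPM in those of F/F Tat. The fall was 4.55-fold (log2 -2.19 ± 0.08, adjusted p = 4.79e-15, limma; scaled -1.57, just short of a fold of 3). The ΔMye Tat libraries were at 8.92, 7.004, 9.49, 8.14 and 7.86 TPM and overlapped F/F Tat at its highest library. Their difference of 0.41 ± 0.09 passed the test (adjusted p = 6.46e-04, limma) but was 0.19 after scaling (adjusted p = 0.0605).

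Klf4 matched Klf2 in level with PBS, at 25.9, 29.2 and 31.2 TPM in the lowest, median and highest libraries. With Tat it was at 6.30, 7.01 and 7.68 TPM in F/F cells, a fall of 4.10-fold (log2 -2.04 ± 0.07, adjusted p = 1.38e-15, limma; scaled -1.42). Its ΔMye Tat libraries were at 6.13, 5.66, 6.26, 6.21 and 4.93 TPM, all below the lowest F/F Tat library. The difference of -0.25 ± 0.08 (adjusted p = 0.00826, limma) was near the threshold and passed it again after scaling (-0.47, adjusted p = 1.03e-05). Leaving out 1 library at a time gave adjusted p from 0.00566 to 0.0255. The test was missed with a pseudocount of 1 (adjusted p = 0.0106, limma), without the filter (0.0118) and with only the compared groups fitted (0.0238). A robust limma fit that weights libraries missed it too (adjusted p = 0.0177). The Klf4 to Klf2 ratio was 0.903 to 1.23 with PBS, 0.953 to 1.25 in F/F Tat and 0.627 to 0.809 in ΔMye Tat, where it did not overlap either F/F group. Klf4 shares 2.0% of its 31-base sequences with other genes.

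The other numbered Klf genes numbered 15, of which 9 were tested. With Tat 2 rose and 4 fell, with a median of -0.28 against -0.65 for all genes, and after scaling 3 rose and 1 fell. The shares of all tested genes were 17% higher and 67.6% lower, and 36.5% and 38.9% after scaling. Klf10, a TGFβ-inducible repressor, was the only one called lower, from 19.5 to 3.75 TPM (log2 -2.36 ± 0.09, adjusted p = 7.57e-15, limma), and was at 6.85 TPM in ΔMye Tat. Klf13 went from 23.4 to 14.1 TPM (log2 -0.72 ± 0.13, adjusted p = 4.39e-05; scaled -0.11, adjusted p = 0.400). Klf6, which is known as a partner of NF-κB in macrophages, rose 1.81-fold to 207.5 TPM (adjusted p = 7.09e-12), and Klf8 went from 1.59 to 5.29 TPM (log2 1.54 ± 0.35, adjusted p = 3.74e-04) with groups that overlapped. In ΔMye Tat against F/F Tat 4 of the 9 were higher and none lower, beside 38.8% and 8.87% of all genes. After scaling 2 were higher and 2 lower, beside 16.0% and 19.2%.

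Pparg (chr6:115360951-115490399, + strand), the lipid-sensing nuclear receptor, had the largest fall of the 9. It was at 24.4, 25.6 and 28.6 TPM in the lowest, median and highest PBS libraries and at 0.275, 1.03 and 1.42 TPM in those of F/F Tat. F/F Tat kept 3.65% of the PBS mean (log2 -4.76 ± 0.23, adjusted p = 2.10e-13, limma; scaled -4.18). The ΔMye Tat libraries were at 3.51, 3.71, 3.88, 3.64 and 4.93 TPM, all above F/F Tat and far below PBS, with 15.2% of the PBS mean. Pparg was the only member called in this comparison, at 4.18-fold above F/F Tat (log2 2.06 ± 0.24, adjusted p = 8.59e-07, limma; scaled 1.87). With a pseudocount of 1 that difference was 1.36 and below the fold threshold. The relative spread in F/F Tat was wide, with an SD of 43.0% of the mean.

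Of 10 other nuclear receptors around PPARγ, 7 were tested. With Tat 2 rose and 5 fell (median -1.14), beside 17% and 67.6% of all tested genes (median -0.65). After scaling 2 rose and 4 fell (median -0.52), beside 36.5% and 38.9% (median -0.04). Rarg, a retinoic acid receptor, was called lower, from 20.5 to 3.61 TPM (log2 -2.48 ± 0.08, adjusted p = 5.63e-16, limma). Rxrb, among the RXR genes whose products pair with PPARγ, went from 18.3 to 7.21 TPM (log2 -1.33 ± 0.07, adjusted p = 1.87e-12). Both were higher in ΔMye Tat than in F/F Tat, by 0.70 ± 0.09 (adjusted p = 1.63e-06) and 0.52 ± 0.08 (adjusted p = 1.39e-05). Ppard rose 1.29-fold to 24.8 TPM (adjusted p = 3.78e-04) and Nr1h2, the LXRβ gene, 1.28-fold to 96.3 TPM (adjusted p = 4.89e-08). The PPAR subtype order was thus inverted with Tat, since Pparg was above Ppard in the PBS means (26.0 and 19.3 TPM) and below it in F/F Tat (0.947 and 24.8 TPM).

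Gata6 (chr18:11052064-11085635, + strand) was the least abundant member in every group. The PBS libraries ranged from 1.33 to 1.81 TPM with a median of 1.52 TPM, and the F/F Tat libraries from 0.124 to 0.466 TPM with a median of 0.277 TPM. The groups did not overlap, and the fitted log2 difference was -2.17 ± 0.31 (SE), -1.65 after scaling and -0.993 with a pseudocount of 1. It is given as a description, because Gata6 passed the filter only where it was high. The ΔMye Tat libraries were at 0.374, 0.310, 1.27, 0.190 and 0.229 TPM, and 1 of them was close to the PBS range. The difference from F/F Tat was 0.40 ± 0.33 (adjusted p = 0.302, limma), and without that library 0.02 ± 0.25 (adjusted p = 0.950). None of the other 5 GATA genes passed the filter, and their group means were at most 0.542 TPM.

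**Figure D3:**
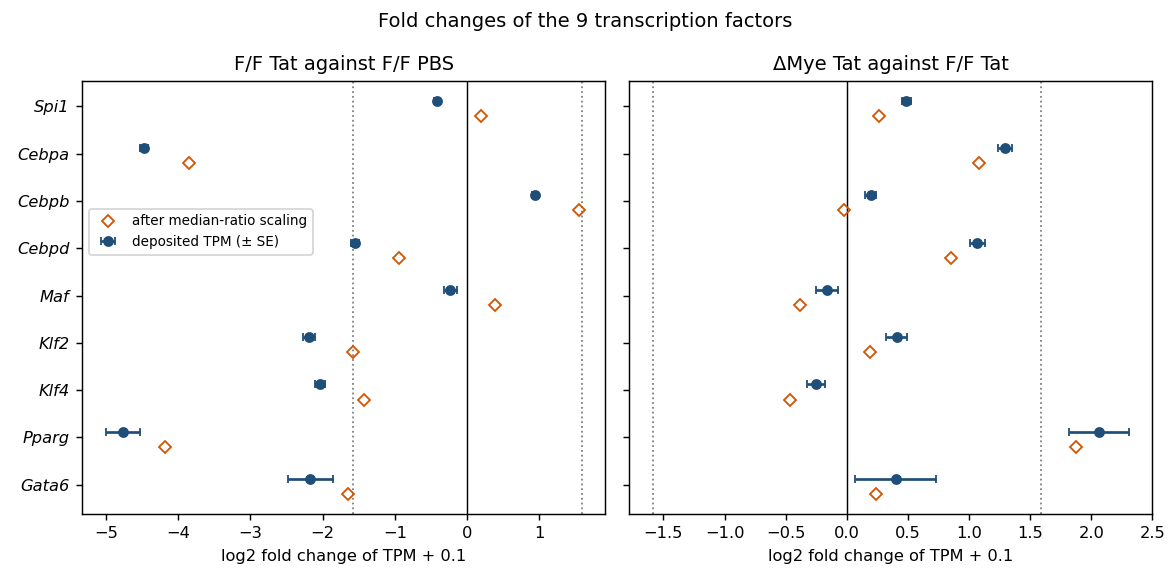
Log2 fold changes of TPM + 0.1 (horizontal axes) of the 9 transcription factors for Tat against PBS in F/F cells (left, n = 6 and 6) and ΔMye Tat against F/F Tat (right, n = 5 and 6). Filled circles with SE bars are deposited TPM, open diamonds are values after median-ratio scaling and dotted lines mark a fold of 3. Cebpa (-4.47) and Pparg (-4.76) lie farthest to the left with Tat, and Spi1 and Maf change sign with median-ratio scaling.

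In ΔMye Tat against F/F Tat, Pparg was the 1 member called higher and none was called lower, beside 0.440% and 0.316% of all tested genes. By the test alone 6 members were higher (Spi1, Cebpa, Cebpb, Cebpd, Klf2 and Pparg) and Klf4 was lower, beside 38.8% and 8.87% of all genes. After scaling 4 were higher (Spi1, Cebpa, Cebpd and Pparg) and 2 lower (Maf and Klf4), beside 16.0% and 19.2%. Groups did not overlap for 5 members in the higher and 1 in the lower direction, beside 28.6% and 8.01% of all genes. In ΔMye Tat against F/F PBS 5 members were called lower (Cebpa, Klf2, Klf4, Pparg and, with the same reserve as above, Gata6) and none higher, beside 11.1% and 4.38% of all genes. These comparisons share the F/F Tat or F/F PBS libraries with those above. As a share of the F/F PBS mean, with F/F Tat given first and ΔMye Tat next, Cebpa was at 4.46% and 11.01%, Cebpd at 33.7% and 71.4%, Pparg at 3.65% and 15.2%, Klf2 at 21.7% and 29.0%, and Klf4 at 24.1% and 20.3%.

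The order of levels also changed between groups. With PBS it ran Cebpb, Spi1 and Cebpa, each apart from the next, followed by Klf4, Klf2, Pparg and Maf, whose neighbours overlapped, and then Cebpd and Gata6. In F/F Tat, Cebpb, Spi1 and Maf came first, each apart from the next. Cebpa, Klf4, Klf2 and Cebpd followed with overlapping neighbours, and Pparg and Gata6 came last and overlapped. In ΔMye Tat the order was Cebpb, Spi1, Maf, Cebpa, Cebpd, Klf2, Klf4, Pparg and Gata6, and only Maf and Cebpa overlapped.

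The ETS relatives of PU.1 were 11 genes, all tested. With Tat 3 rose and 6 fell (median -0.40), beside 17% and 67.6% of all genes (median -0.65). After scaling 6 rose and 5 fell, beside 36.5% and 38.9%. Fli1 was called lower, from 18.8 to 1.90 TPM (log2 -3.27 ± 0.13, adjusted p = 4.60e-15, limma), and Elk3 went from 13.5 to 6.12 TPM (log2 -1.15 ± 0.14, adjusted p = 1.72e-07). Both were higher in ΔMye Tat than in F/F Tat, by 0.79 ± 0.13 (adjusted p = 5.28e-05) and 0.92 ± 0.14 (adjusted p = 2.31e-05). Ets2 rose 2.47-fold to 109.2 TPM (adjusted p = 6.79e-15) and Elf4 1.25-fold to 20.6 TPM (adjusted p = 0.00138).

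**Figure D4:**
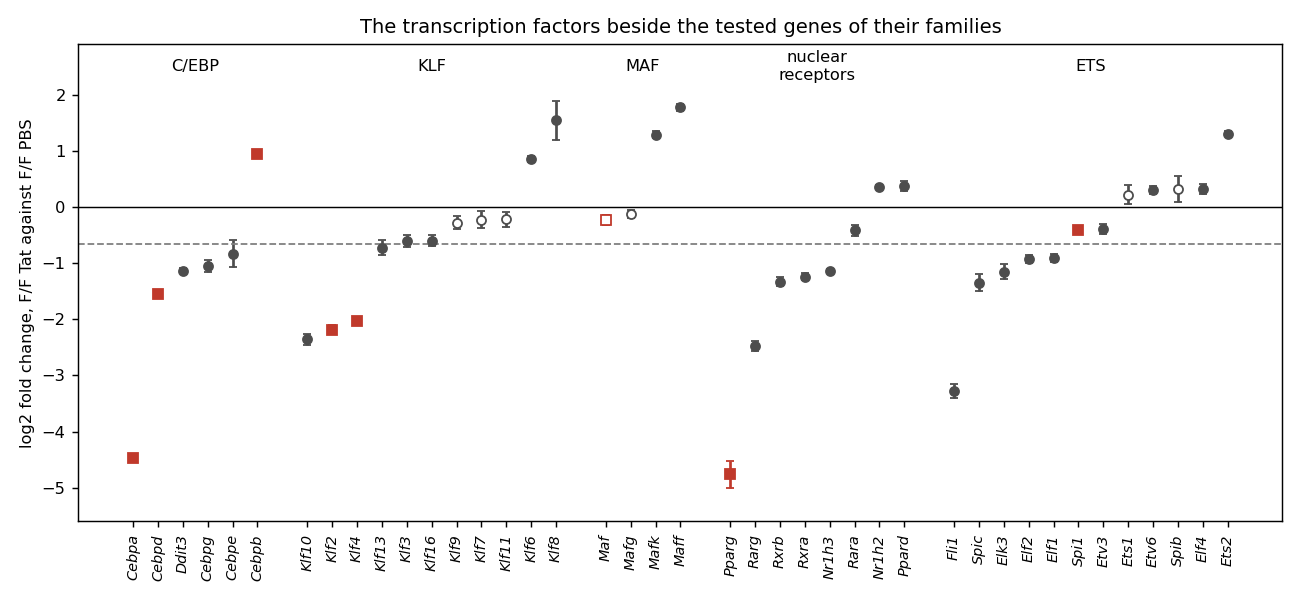
Log2 fold change of TPM + 0.1 in F/F Tat against F/F PBS (vertical axis, with SE bars, n = 6 and 6) for tested genes of 5 transcription factor families (horizontal axis). Red squares are members, grey circles their relatives, open symbols did not pass the test, and the dashed line is the median of all tested genes (-0.65). Pparg (-4.76) and Cebpa (-4.47) lie lowest and Maff (1.78) highest. No gene of the GATA family other than Gata6 was tested, and that family is not drawn.

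Of 17 other myeloid regulators, 16 were tested. With Tat 4 were higher and 8 lower (median -0.23), beside 17% and 67.6% of all genes (median -0.65). After scaling 10 were higher and 6 lower, beside 36.5% and 38.9%. Among the higher genes, Gfi1 (0.464 TPM with PBS and 1.65 TPM in F/F Tat) passed the filter only through the Tat groups. Its rise is a description and carries no weight in the counts. Irf8, a partner of PU.1, rose from 76.0 to 144.5 TPM in F/F Tat (log2 0.92 ± 0.05, adjusted p = 5.70e-13, limma) and was at 247.1 TPM in ΔMye Tat (0.77 ± 0.05 above F/F Tat, adjusted p = 2.55e-10). Nr4a1, an orphan nuclear receptor of Ly6C-low monocytes, went from 2.08 to 7.01 TPM and was lower in ΔMye Tat, at 3.65 TPM (-0.93 ± 0.11, adjusted p = 1.11e-06). Bhlhe41, a transcriptional repressor, was called lower, from 69.4 to 17.5 TPM (adjusted p = 1.13e-17), and was at 38.4 TPM in ΔMye Tat. Id3, an inhibitor of bHLH factors, went from 34.5 to 12.2 TPM (adjusted p = 9.33e-13).

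Genes known as targets of the members did not follow one direction. Of 15 PU.1 targets 5 rose and 9 fell with Tat (median -0.48), beside 17% and 67.6% of all genes (median -0.65). After scaling 8 rose and 4 fell (median 0.14), beside 36.5% and 38.9% (median -0.04). The receptor gene Csf1r was called lower, from 381.2 to 64.0 TPM (log2 -2.57 ± 0.09, adjusted p = 9.64e-16, limma), as was the adaptor Tyrobp, from 2562 to 714.7 TPM (adjusted p = 6.64e-20). The Fc receptor gene Fcgr1 rose from 112.7 to 300.1 TPM (adjusted p = 1.83e-17) and Csf3r from 54.9 to 128.0 TPM (adjusted p = 1.28e-14). In ΔMye Tat, Csf1r and Tyrobp were above F/F Tat by 0.68 ± 0.09 (adjusted p = 5.58e-06) and 0.80 ± 0.04 (adjusted p = 1.60e-12), and Fcgr1 was below it by -0.87 ± 0.04 (adjusted p = 1.74e-12).

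The 12 targets of C/EBPβ and C/EBPδ were the list with the highest median, at 4.02, and 10 rose while 2 fell, on both scales. Of all genes 17% rose and 67.6% fell, and 36.5% and 38.9% after scaling. Il6 went from 9.55 to 3393 TPM with Tat (adjusted p = 3.41e-26, limma) and Nos2 from 0.771 to 896.5 TPM. Nos2 passed the filter only through the Tat groups, so its rise is a description and carries no weight in the counts. Il6 and Nos2 were lower in ΔMye Tat than in F/F Tat, at 1244 and 443.3 TPM (-1.45 ± 0.07 and -1.03 ± 0.10, adjusted p = 1.46e-12 and 8.08e-08, limma). The liver and myeloid gene Hp and the arginase gene Arg1 fell, from 47.8 to 18.97 TPM (adjusted p = 4.20e-12) and from 40.6 to 9.45 TPM (adjusted p = 2.02e-14). Several genes of the list, such as Il6 and Nos2, are also textbook NF-κB targets.

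Of 10 PPARγ targets 8 were tested, 2 rising and 6 falling with Tat (median -0.93), beside 17% and 67.6% of all genes (median -0.65). After scaling 3 rose and 4 fell, beside 36.5% and 38.9%. The fatty acid carriers Fabp4 and Fabp5 were called lower, from 627.8 to 128.1 TPM (adjusted p = 1.06e-21, limma) and from 5015 to 1169 TPM (adjusted p = 1.02e-22). In ΔMye Tat they stood at 117.4 and 1138 TPM. Olr1, a lectin-like scavenger receptor gene, rose from 6.74 to 14.3 TPM (adjusted p = 1.30e-10) and further to 36.3 TPM in ΔMye Tat (1.34 ± 0.08 above F/F Tat, adjusted p = 1.10e-10). Acadl, an acyl-CoA dehydrogenase, rose 1.19-fold to 108.2 TPM (adjusted p = 8.31e-08).

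Of 9 c-Maf targets 7 were tested, with 1 rising and 6 falling (median -1.09), beside 17% and 67.6% of all genes (median -0.65). After scaling 1 rose and 5 fell (median -0.48), beside 36.5% and 38.9% (median -0.04). Il10 rose from 0.563 to 11.9 TPM with Tat (log2 4.398 ± 0.32). In ΔMye Tat it was at 1.90 TPM, called lower than F/F Tat (-2.59 ± 0.33, adjusted p = 2.34e-06, limma). Gas6, a bridging ligand for apoptotic cells, went from 7.61 to 1.01 TPM with Tat, and Mrc1, the mannose receptor, from 42.8 to 15.0 TPM (adjusted p = 3.53e-13, limma). Il10 passed the filter only through the Tat groups, and Gas6 only through F/F PBS. Their changes with Tat are therefore descriptions and carry no weight in the counts.

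Of 8 targets of KLF2 and KLF4, 6 were tested, with 2 rising and 4 falling (median -1.19), beside 17% and 67.6% of all genes (median -0.65). After scaling 3 went each way, beside 36.5% and 38.9%. S1pr1 went from 20.3 to 2.14 TPM with Tat (log2 -3.19 ± 0.10, adjusted p = 1.32e-16, limma). Thbd, the thrombomodulin gene, went from 14.5 to 0.219 TPM (log2 -5.55 ± 0.18). Thbd passed the filter only through the F/F PBS libraries, so its fall is a description and carries no weight in the counts. Timd4, a receptor for phosphatidylserine, rose from 12.7 to 21.7 TPM (adjusted p = 1.04e-08). Timd4 was at 7.09 TPM in ΔMye Tat and called lower there than in F/F Tat (-1.60 ± 0.08, adjusted p = 4.82e-12).

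Of 12 genes tied to GATA6 in resident peritoneal macrophages 8 were tested. With Tat 2 rose and 4 fell (median -0.44), beside 17% and 67.6% of all genes (median -0.65). After scaling 3 rose and 3 fell (median 0.16), beside 36.5% and 38.9% (median -0.04). Serpinb2, a plasminogen activator inhibitor, rose from 53.4 to 609.7 TPM (adjusted p = 1.17e-21, limma) and F10, the factor X gene, from 224.2 to 849.7 TPM (adjusted p = 1.64e-22). Alox15 went from 6.36 to 2.01 TPM (adjusted p = 1.86e-09) and F5 from 6.06 to 2.32 TPM (adjusted p = 6.79e-09). In ΔMye Tat against F/F Tat 1 was higher and 5 were lower (median -0.49), beside 38.8% and 8.87% of all genes (median 0.22). After scaling 1 was higher and 6 were lower, beside 16.0% and 19.2%.

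The tested genes whose pattern was most like each member were ranked by the root mean square difference over the 17 libraries of log2(TPM + 0.1), centred on the F/F PBS mean. Nearest to Cebpa were Pdxk and Otulinl, at 0.194 and 0.210. Otulinl was also nearest to Pparg, at 0.495, and the second was Cebpa itself, at 0.516. Nearest to Cebpd were Ado and Jdp2, at 0.086 and 0.107, and nearest to Cebpb were Tank and Rab12, at 0.089 and 0.094. For Spi1 they were Plekho2 and Il11ra1 (0.073 and 0.077), and for Maf they were Apaf1 and Taok3 (0.105 and 0.108). Klf2 was closest to Lta4h and Jun (0.149 each), and Klf4 to Fabp5 and Sorl1 (0.154 and 0.185). The nearest genes to Gata6 were Zc3h8 and Fdxr, both at 0.417, a looser match at a low level.

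Bulk RNA cannot tell fewer cells of a type from less RNA per cell, and Pparg and Gata6 are also used by other cells of the cavity. All 5 adipocyte markers were under 1 TPM in every library, with Adipoq and Lep at 0. The 7 mesothelial markers summed to 5.16 to 7.57 TPM with PBS, 2.69 to 4.30 TPM in F/F Tat and 1.89 to 2.51 TPM in ΔMye Tat, and none of the 7 was at 0 throughout. Of 6 endothelial markers, Tek and Emcn were at 0, and the sum was 21.7 to 30.8 TPM with PBS, 14.9 to 20.05 TPM in F/F Tat and 9.93 to 18.8 TPM in ΔMye Tat. Fibroblast markers summed to 28.0 to 37.7, 27.7 to 32.3 and 16.1 to 20.6 TPM in the same order of groups.

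Leukocyte markers also moved with the groups in part. The 7 neutrophil markers, mostly S100a8, summed to 66.7 to 78.8 TPM with PBS, 68.4 to 80.6 TPM in F/F Tat and 91.5 to 109.6 TPM in ΔMye Tat. The 6 dendritic cell markers, mostly Ccr7, summed to 11.7 to 20.1, 43.2 to 51.4 and 28.5 to 35.8 TPM. Mast cell markers summed to 33.9 to 46.8, 32.9 to 44.4 and 25.5 to 31.8 TPM, B cell markers to 12.5 to 26.0, 11.5 to 15.3 and 8.44 to 13.1 TPM, and eosinophil markers to 1.43 to 2.64, 1.53 to 2.25 and 1.04 to 1.51 TPM. The 7 T cell markers in the table summed to 151.7 to 175.0, 148.3 to 163.2 and 157.8 to 172.4 TPM, nearly all of it Il7r. The part of these cells in the values of the members was not tested.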

How the data were processed

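RNA-Seq values of 17 libraries in 3 groups were used. The authors quantified the reads with Salmon against the Ensembl annotation of GRCm38 (the submitters' processing notes name mm10) and deposited TPM by gene symbol, with no scaling between libraries stated. The Salmon version is not given in the sources used here. TPM hold no read counts, so depth and counting error are unknown. Groups were taken from the labels. The table has 21683 rows, of which 26 carry a symbol turned into a date.

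Genes reaching 1 TPM in 5 or more libraries entered limma 3.58.1 (R 4.3.3) as log2(TPM + 0.1), with eBayes and trend, all 3 groups fitted together (14 residual degrees of freedom; Benjamini-Hochberg over all tested genes). A fold change on this scale understates changes of low genes. The code was tested on simulated data. The members and gene lists were chosen with earlier results of these data known. Named genes of a list are the 2 highest and 2 lowest differences with Tat among genes past the test with at least 5 TPM in the higher group, or the whole list up to 6 genes. Gfi1 is named only because of how it passed the filter. Some results of this rule, and an allele that all groups share, are not reported here. Coordinates are from GENCODE M21, promoters from RefSeq. Other pseudocounts, filters, scalings, fits and leaving out each library were tried.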

Additional observations from a re-analysis of the deposited data

Results flagged for a closer look

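Each member was checked in each group for a library far from the others by Dixon's test, over 27 groups of values, of which chance flags about 1 in 20. There were 2 such values. Gata6 in ΔMye Tat library 21 was at 1.27 TPM, while the other 4 libraries of the group were at 0.190 to 0.374 TPM. Pparg in ΔMye Tat library 23 was at 4.93 TPM, while the others were at 3.51 to 3.88 TPM. Without library 21 Gata6 in ΔMye Tat differed from F/F Tat by 0.02 (adjusted p = 0.950, limma) in place of 0.40, and without library 23 the Pparg difference was 1.98 (adjusted p = 4.6e-06) in place of 2.06.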

How the results depend on the processing

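The values of the 9 members in 3 comparisons were refitted with each library left out and under 8 other settings. With a library left out, 449 of 459 values kept their direction and side of the threshold and none was reversed. Of the others 9 were Klf4 in ΔMye Tat against F/F Tat, which missed the test (log2 -0.25 to -0.19) without F/F PBS library 3, 4 or 5, F/F Tat library 7, 9, 10 or 11, or ΔMye Tat library 20 or 23, and 1 was Maf with Tat, which passed without F/F Tat library 11 (-0.27, adjusted p = 0.0093, limma). The counts of called members did not change when any library was left out. With median-ratio scaling or quantile normalization, 3 members in place of 5 were called lower against F/F PBS, both in ΔMye Tat and in F/F Tat. With a pseudocount of 1, 0 in place of 1 was called higher in ΔMye Tat against F/F Tat. Without the fold threshold the counts were 1 higher with Tat, 6 higher and 1 lower in ΔMye Tat against F/F Tat, and 1 higher in ΔMye Tat against F/F PBS.

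Median-ratio scaling reversed Spi1 (0.20) and Maf (0.38) with Tat, Cebpb in ΔMye Tat against F/F Tat (-0.023) and Maf in ΔMye Tat against F/F PBS (0.004). Quantile normalization reversed Maf with Tat (0.23), Spi1 in ΔMye Tat against F/F PBS (-0.21) and Gata6 in ΔMye Tat against F/F Tat (-0.064). Under these other settings 192 of 213 values kept direction and side of the threshold. Spi1 with Tat ranged from -0.66 to 0.20 over them. Gata6 could not be tested with a filter of 5 TPM. No paired analysis was possible because no replicate number is shared between groups.

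TPM give no depth, so low genes such as Gata6 and Pparg in F/F Tat have no counting interval. In ΔMye Tat against F/F PBS, genotype and Tat cannot be told apart, and whether the response to Tat depends on genotype could not be tested without ΔMye libraries given PBS.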
